A study of Drosophila melanogaster with 6 samples.

Results

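The maltase genes of Drosophila melanogaster are a family of 10, named Mal-A1 to Mal-A8 and Mal-B1 and Mal-B2. Members were taken by gene identifier from the array's annotation, and each of the 10 had 1 probe set annotated to it alone, out of 11982 genes measured that way. The Mal-A genes lie side by side on chromosome arm 2R in the order of their numbers, and the Mal-B pair lies side by side on arm 2L. No other measured gene lay between the members of either cluster.

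Maltases are alpha-glucosidases. They cut the glucose at the end of maltose and short starch fragments, and many also cut sucrose, so that the midgut can take up free sugar. The first members described, Mal-A1, Mal-A2 and Mal-A3, were named larval visceral proteins (LvpH, LvpD and LvpL) after the larval gut in which they were found. Digestive carbohydrases of the fly are repressed by dietary glucose, and the activin-type ligand Dawdle is part of that control.

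Whole adult flies were compared. In the cross, da-GAL4 flies were mated to a UAS-AMP line, so that GAL4, made under the promoter of daughterless, a gene active in most tissues, turned on a transgene for an antimicrobial peptide that the labels do not name. The control was the same UAS-AMP stock without the driver, so both groups carried the transgene and only the cross had the driver, together with other chromosomes from its parent stock. Driver-only flies were not analysed here. There were 3 samples per group, each a pool of 25 males with 25 females and each with its own Affymetrix Drosophila Genome 2.0 array. Adult age, food and mating state are not given in the labels, nor whether replicates were separate cultures, so the p-values reflect only the scatter of these samples, and that scatter may be technical.

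Signals were linear probe set intensities, scaled alike by the authors. Median signals were 767 to 903 over the 6 arrays, and arrays correlated at 0.946 to 0.958 within groups and 0.945 to 0.953 between groups across probe sets. Every maltase gene was measured well over background on every array. The lowest signal was 345, where the background guide, taken on each array as the 95th percentile over 27 spike-in controls of Bacillus sequence, was at most 123. Signals of different probe sets are not comparable as levels, so each maltase gene was compared only with itself across arrays; sums over marker lists, given further on, are weighted to the brightest probe sets. A lower signal in whole flies can come from fewer cells that express a gene or from less RNA per cell, and the 2 cannot be told apart here.

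All 10 maltase genes had lower mean signals in the cross, with log2 differences (cross minus control, of signal + 1) from -1.35 for Mal-A2 to -0.11 for Mal-A8 and a median of -0.48. Over all 11982 genes the median was -0.002, with 5963 higher and 6019 lower. Mal-A2 differed most, by 2.56-fold. It fell in the fit whose prior variance follows the signal, and no member passed the fit with a constant prior. In 5 of the 10 members, Mal-A1, Mal-A2, Mal-A3, Mal-A5 and Mal-B2, all 3 arrays of the cross lay below all 3 control arrays, an arrangement found in 12.8% of all probe sets.

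The test was limma with Benjamini-Hochberg adjustment over 18769 probe sets, run with a constant prior variance and, as an alternative, with a trended and robust prior. With the constant prior 0 probe sets passed an adjusted p of 0.05, that is 0%, although 2070 had an unadjusted p under 0.05, and leaving out the dimmest 33.3% of probe sets gave 112. With the trended prior 147 passed, or 0.783%, and Mal-A2 was the only maltase gene among them. At an unadjusted p under 0.05 with the constant prior there were 4 members, Mal-A1, Mal-A2, Mal-A3 and Mal-B2, all lower, where 8.16% of all probe sets were lower at that level.

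**Figure D1:**
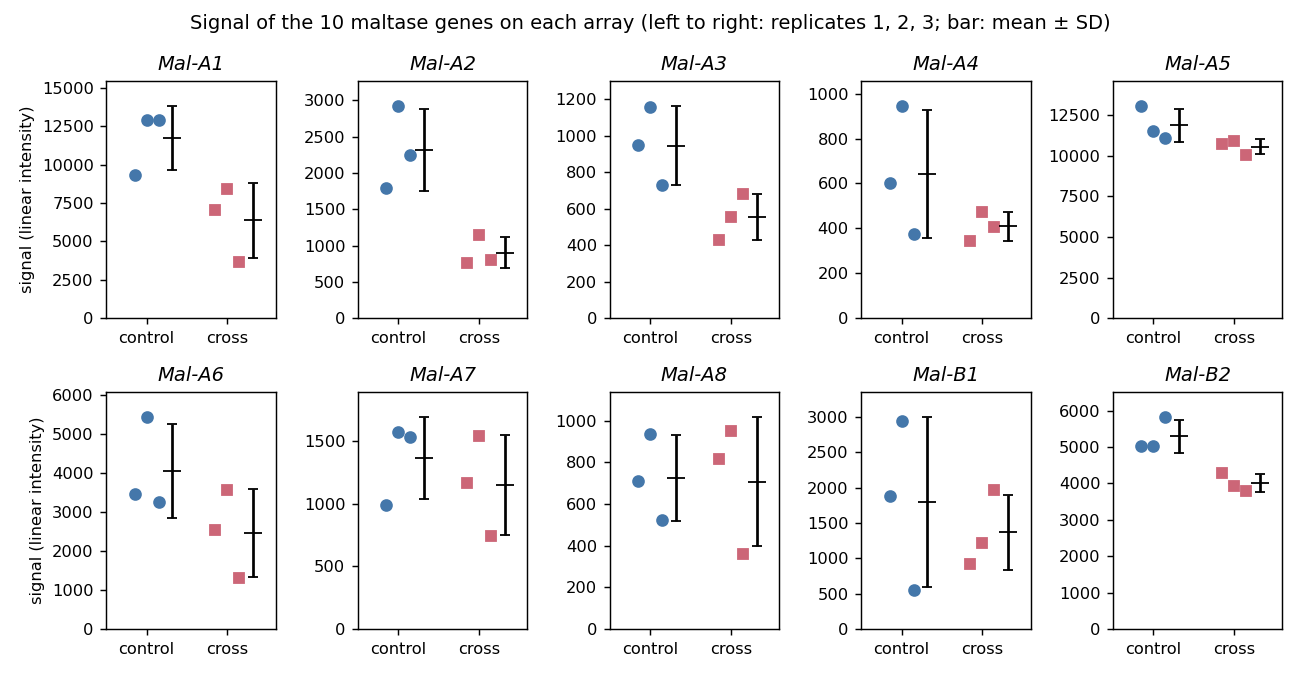
Signal of each maltase gene (vertical axes, linear intensity from 0, one scale per gene) on the 3 control arrays (circles) and the 3 arrays of the cross (squares), with the mean and SD of each group beside them. The groups lie apart for Mal-A1, Mal-A2, Mal-A3, Mal-A5 and Mal-B2 and overlap for the other 5 genes.

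Mal-A1, the first gene of its cluster, had signals of 9335, 12900 and 12951 in control replicates 1, 2 and 3 and of 7076, 8403 and 3670 in those of the cross. The groups did not overlap, and replicate 3 of the cross lay far below the others. Mal-A1 was 1.93-fold lower in the cross, with a log2 difference of -0.95 ± 0.36 (SE, n = 3 in each group) that did not pass (limma, adjusted p = 0.426 with the constant prior and 0.202 with the trended prior). Without cross replicate 3 the difference was -0.59, so that array carried a large share of it.

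Mal-A2, the next gene along, had signals of 1790, 2918 and 2244 in the control and 763, 1150 and 798 in the cross. Even the highest array of the cross was well below the lowest control array. The means were 2317 ± 568 and 904 ± 214 (SD, n = 3 each), a log2 difference of -1.35 with a 95% interval from -2.01 to -0.70. The adjusted p in limma was 0.195 with the constant prior and 0.041 with the trended prior. The size of the difference moved little with single arrays left out, from -1.54 to -1.17, but the trended call did not outlast most of these omissions. It remained without cross replicate 2 (adjusted p = 0.027) and was lost without each of the other 5 arrays, at adjusted p-values of 0.0603 to 0.194 (limma, trended prior).

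Mal-A3 had signals of 949, 1158 and 730 in the control against 429, 554 and 683 in the cross. The groups were apart, but only narrowly, since control replicate 3 and cross replicate 3 nearly met. The gene was 1.70-fold lower, with a log2 difference of -0.77 ± 0.26 (SE), and did not pass (limma, adjusted p = 0.378 with the constant and 0.253 with the trended prior). Mal-A4 had signals of 602, 943 and 377 in the control and 345, 474 and 408 in the cross. Its groups overlapped, because control replicate 3 lay among the arrays of the cross, and its log2 difference of -0.56 had a 95% interval from -1.46 to 0.35.

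The remaining Mal-A genes showed smaller or less even differences. Mal-A5 was the steadiest of the 10, with signals of 13035, 11497 and 11091 in the control and 10750, 10883 and 10037 in the cross. The groups were apart by a small margin, and the log2 difference of -0.17 had a 95% interval from -0.49 to 0.16, which leaves out a fall of the size measured for Mal-A2. Mal-A6 had signals of 3468, 5433 and 3251 in the control and 2526, 3558 and 1301 in the cross. Its mean was 1.74-fold lower, yet cross replicate 2 lay above control replicates 1 and 3, and the interval of the log2 difference of -0.80 ran from -1.87 to 0.28.

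Mal-A7 had signals of 990, 1573 and 1538 in the control and 1164, 1543 and 747 in the cross. Mal-A8 had signals of 709, 937 and 525 in the control and 816, 949 and 358 in the cross. For both genes the groups overlapped broadly, and replicate 3 of the cross was the lowest array. Their log2 differences were -0.28 ± 0.34 and -0.11 ± 0.44 (SE), and without cross replicate 3 they became 0.0023 and 0.32, so neither had a direction of its own. Without control replicate 2, that of Mal-A8 was 0.10.

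Mal-B1 varied most among the members. It had signals of 1888, 2948 and 548 in the control and 923, 1213 and 1960 in the cross. Both the highest and the lowest array were controls. The log2 difference of -0.16 had a 95% interval from -1.87 to 1.55, and it became 0.35 without control replicate 2, 0.03 without control replicate 1, 0.09 without cross replicate 1 and -0.86 without control replicate 3. Mal-B2, its neighbour, behaved otherwise, with signals of 5034, 5035 and 5821 in the control and 4279, 3925 and 3804 in the cross. Its groups were clearly apart, with tight replicates. The difference was small, 1.32-fold or -0.40 ± 0.13 on the log2 scale (SE), and did not pass (limma, adjusted p = 0.371 with the constant and 0.185 with the trended prior). It stayed between -0.45 and -0.33 with any 1 array left out.

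**Figure D2:**
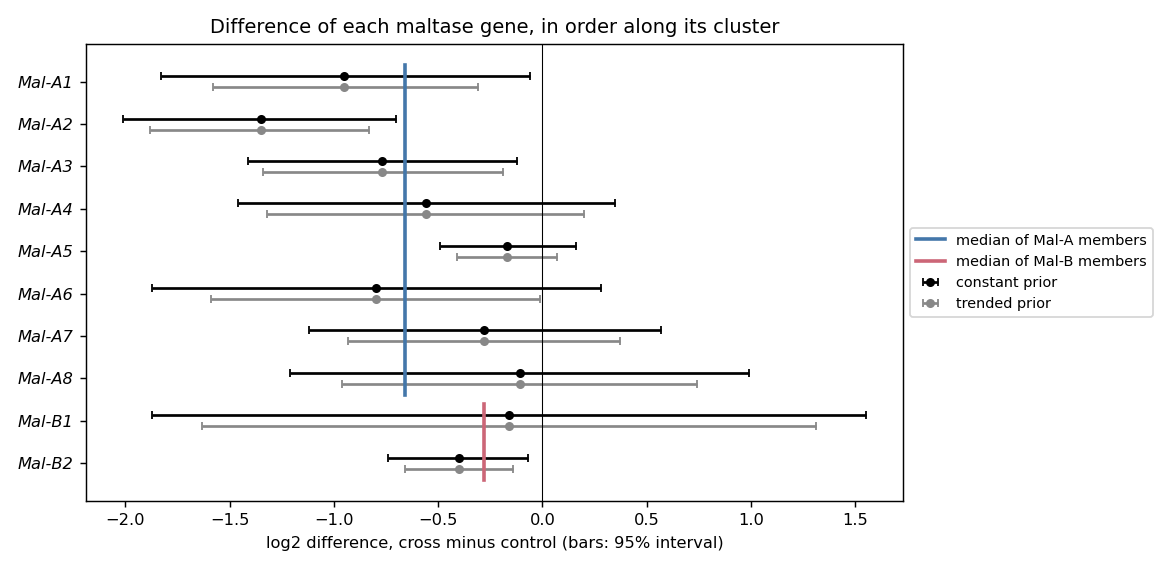
Log2 difference, cross minus control, of each maltase gene (horizontal axis) in its order along the cluster, with 95% intervals from limma with a constant prior (black) and a trended prior (grey); vertical bars mark the medians of the Mal-A and Mal-B members. Differences run from -1.35 for Mal-A2 to -0.11 for Mal-A8, and the interval of Mal-B1, from -1.87 to 1.55 with the constant prior, is the widest.

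The spread between replicates differed widely within the family. The residual SD on the log2 scale was 0.10 for Mal-A5 and 0.11 for Mal-B2, 0.33 to 0.61 for the 7 other Mal-A genes and 0.97 for Mal-B1. Over all probe sets the median residual SD was 0.28 in the middle 33.3% by signal, which held 6 members, and 0.16 in the brightest 33.3%, which held 4. Mal-A1 and Mal-A6 thus varied more between replicates (0.49 and 0.59) than the median probe set of their brightness. So did all 6 members of the middle 33.3%.

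The 2 clusters were set side by side. The median log2 difference was -0.66 over the 8 Mal-A genes and -0.28 over the 2 Mal-B genes, and the clusters' medians differed by -0.38. The SD of that contrast between single arrays of a group was 0.49 on the log2 scale. The contrast was not tested, and the clusters were not distinguished from each other. Without cross replicate 3 the contrast was -0.07. Within the Mal-A cluster the first 4 genes had a median of -0.86, with differences from -1.35 to -0.56, and the last 4 a median of -0.22, with differences from -0.80 to -0.11. That split was drawn after the values were seen and is a description only.

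Arrays differed in a way that ran through several members. Control replicate 2 was the highest array for 6 of the 10 genes, and cross replicate 3 was the lowest for 6. With each gene centred on its own mean over the 6 arrays, the median deviation of the Mal-A genes was 0.22, 0.66 and 0.08 in control replicates 1, 2 and 3 and -0.24, -0.02 and -0.77 in those of the cross. The Mal-B pair gave 0.30, 0.62 and -0.49 in the control and -0.34, -0.20 and 0.12 in the cross. Cross replicate 3 was therefore low for the Mal-A genes as a group and not for the Mal-B pair, in which Mal-B1 was high and Mal-B2 low on that array. Mal-A2, Mal-A3 and Mal-A4 were lowest on cross replicate 1 instead. Without control replicate 2 the Mal-A median was -0.40, and without control replicate 3 it was -0.88.

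**Figure D3:**
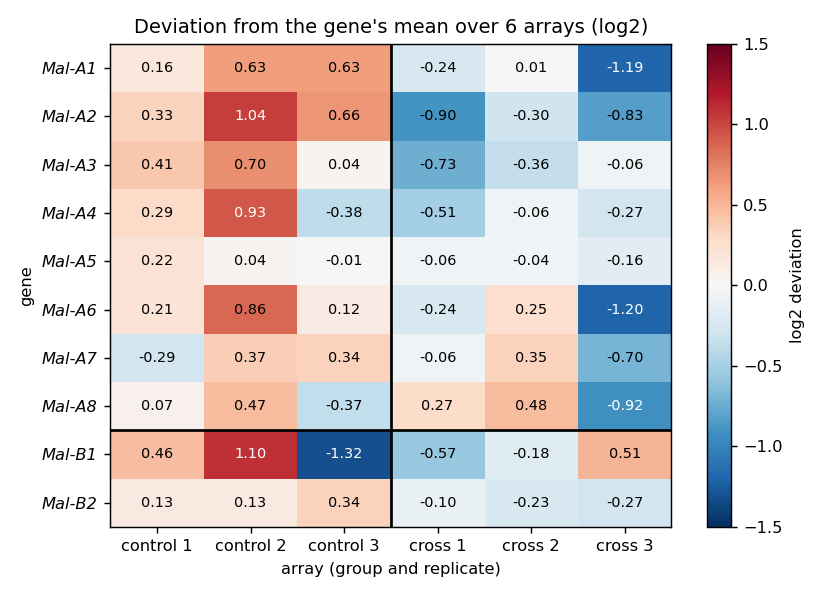
Deviation of each maltase gene (rows) on each array (columns) from the gene's own mean over the 6 arrays, in log2 units, printed and coloured from blue (below) to red (above). Control replicate 2 is above the mean for all 10 genes, and cross replicate 3 is 0.70 or more below it for Mal-A1, Mal-A2, Mal-A6, Mal-A7 and Mal-A8.

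**Figure D4:**
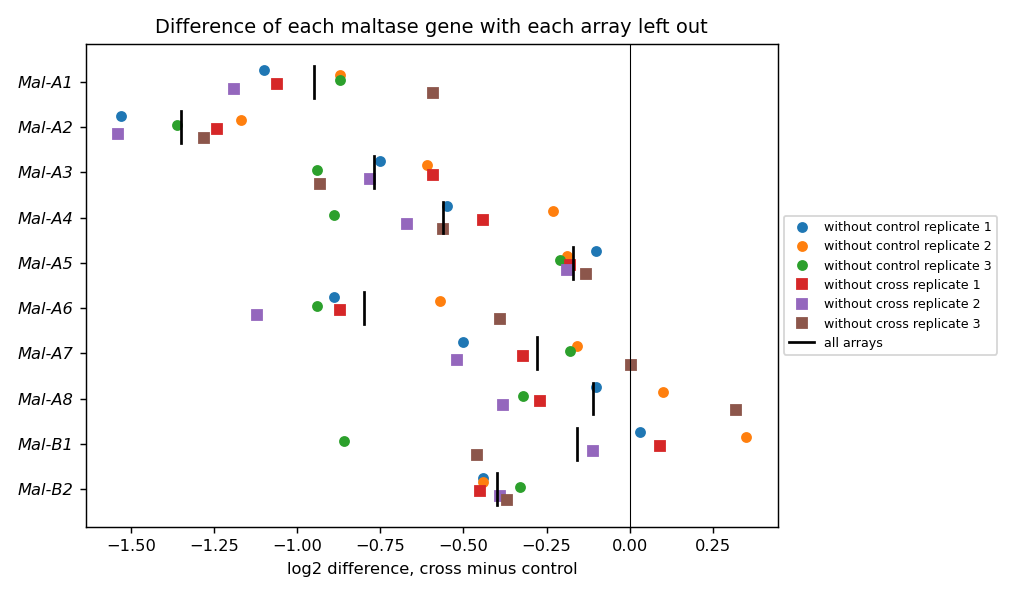
Log2 difference of each maltase gene (horizontal axis) with all arrays (black bar) and with each array left out in turn (circles for control arrays, squares for arrays of the cross). Mal-A2 stays between -1.54 and -1.17 and Mal-B2 between -0.45 and -0.33, while Mal-A7, Mal-A8 and Mal-B1 each reach values above 0.

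Markers of midgut cells were read on the same arrays. Of 20 enterocyte genes listed, 15 were measured, 11 of them lower and 4 higher, with a median log2 difference of -0.17. Their summed signal was 529396 to 643979 in the control and 447590 to 619759 in the cross, so the groups overlapped, but a few very bright trypsin and Jonah protease genes make up most of that sum. With each marker centred on its own mean, the median deviation of the 15 was 0.23, 0.01 and 0.01 in control replicates 1, 2 and 3 and -0.28, -0.16 and 0.15 in those of the cross. In the trended fit PGRP-SC2, an amidase that degrades peptidoglycan, fell (log2 difference -0.86, limma adjusted p = 0.0158) and the Jonah protease gene Jon44E rose (1.10, adjusted p = 0.0249). The mucin gene Mur29B, at -0.63, did not pass (adjusted p = 0.0793). All 15 measured genes were above the background guide on some array.

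Other cell types were followed in the same way. Among 7 measured genes of the enteroendocrine list, 4 were lower (median -0.14). Their sum was 10717 to 12232 in the control and 10949 to 11214 in the cross. As whole flies were read, the tissue that gave the signal of these genes is not known. Their median deviation was highest on control replicate 2 (0.19) and lowest on cross replicate 3 (-0.20), with cross replicate 2 close to it (-0.17). That of the Mal-A genes was 0.66, -0.77 and -0.02 on these arrays. In the list only pros was itself highest on control replicate 2 and lowest on cross replicate 3, and AstC was highest on cross replicate 3. The neuropeptide gene NPF and the transcription factor gene pros had log2 differences of -0.72 and -0.58, neither past the test. The 2 measured Malpighian tubule genes, Oatp58Dc and ZnT35C, were at -0.42 and 0.23. Fat body genes had a median of -0.13 over 5 members, female germline and yolk genes 0.03 over 5, and male accessory gland and testis genes 0.30 over 6. The sum of the male genes was 81830 to 111779 in the control and 92714 to 162267 in the cross, with cross replicate 2 the highest. The part of these shifts in the maltase differences was not tested.

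Of the other genes for carbohydrate digestion and storage, 8 of 11 listed were measured, 7 lower and 1 higher, with a median log2 difference of -0.10 and 0 past the test with either prior. The alpha-glucosidase gene tobi, a target of insulin and glucagon-like signals, stood out in size. It had signals of 5106, 4090 and 1878 in the control and 1605, 1973 and 674 in the cross. The groups overlapped by 1 array, cross replicate 3 was again the lowest, and the log2 difference was -1.40 ± 0.56 (SE; limma, adjusted p = 0.454). Amyrel, an amylase-related gene, was at -0.63, and GCS2beta, the regulatory subunit of the glucosidase that trims glycoproteins, at -0.09. The amylase genes Amy-p and Amy-d share a probe set that cannot be assigned to either. It read 34891, 31624 and 27363 in the control and 19347, 23886 and 19447 in the cross. The groups were apart, and the log2 difference of -0.58 did not pass (limma, adjusted p = 0.312 with the constant and 0.109 with the trended prior). This probe set was looked up after the values were seen.

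Sugar transport genes had 5 of 8 measured members higher and 3 lower, with a median log2 difference of 0.10 and 0 past the test. The largest differences among them were 0.53 for the sugar transporter gene sut4 and -0.36 for sut2. Glut1, a glucose transporter gene, was at 0.24 by its brightest probe set, and its 2 other probe sets were at -1.57 and -0.60. The 3 probe sets of Glut1 thus disagreed in sign, and none passed with either prior.

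Regulators of sugar-responsive and digestive genes had 3 of 9 members higher and 6 lower, with a median of -0.08 and 0 past the test. The type II activin and BMP receptor gene put had signals of 8446, 7578 and 8517 in the control and 6532, 5056 and 6200 in the cross. Its groups were apart, at a log2 difference of -0.47 that did not pass (limma, adjusted p = 0.366 with the constant and 0.157 with the trended prior). The ligand gene daw was at -0.28 and the sugar-responsive transcription factor gene cbt at 0.31, also without passing. CD98hc, which encodes the heavy chain of amino acid transporters and is related in sequence to the maltases, was at -0.02 with a 95% interval from -0.33 to 0.29.

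The genes beside the clusters were examined because the cross and the control also differed in their chromosomes. Of the 8 measured genes nearest to the Mal-A cluster, 4 on each side, 6 were lower and 2 higher, with a median log2 difference of -0.51 and 0 past the test with either prior. The groups were apart in 4 of the lower genes and in both of the higher ones, where 12.8% of all probe sets were apart in the lower and 5.76% in the higher direction. On the side of Mal-A1 lie Cyp4e1, Cyp4e2 and Cyp4ad1, which encode cytochrome P450 enzymes, at -0.61, -0.11 and -1.0, and CSN7, which encodes a subunit of the COP9 signalosome, at 0.16. On the side of Mal-A8 lie the glutamate receptor-like gene mtt at -0.95, CG12780 at -0.64 and the cytochrome P450 genes Cyp6a14 and Cyp6a13 at 0.67 and -0.42. The neighbours' median was -0.51 and that of the Mal-A genes -0.66, while single neighbours ran from -1.0 to 0.67. The part of the differing chromosomes in the maltase differences was not tested.

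Around the Mal-B pair, 4 of 8 neighbours were lower and 4 higher, with a median of -0.02. CG44008, the measured gene next to Mal-B1, had signals of 13935, 13095 and 14410 in the control and 8449, 7674 and 9388 in the cross. The groups were far apart, and the gene fell 1.63-fold in the trended fit (limma, adjusted p = 0.0293; 0.196 with the constant prior). That call was lost under median centring (adjusted p = 0.104) and with the replicate number as a block (0.133, limma, trended prior). It was also lost when replicate 1 or 2 of either group was left out (0.0717 to 0.213, limma, trended prior). The other genes on that side were CG31704 at 0.30, the seminal fluid gene Sfp33A3 at 0.72 and the Polycomb-group gene esc at 0.24. Beyond Mal-B2 lie the odorant receptor genes Or33a, Or33b and Or33c, with log2 differences of -0.28, -1.25 and -0.47 at signals near background, and CG16964 at 0.28.

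**Figure D5:**
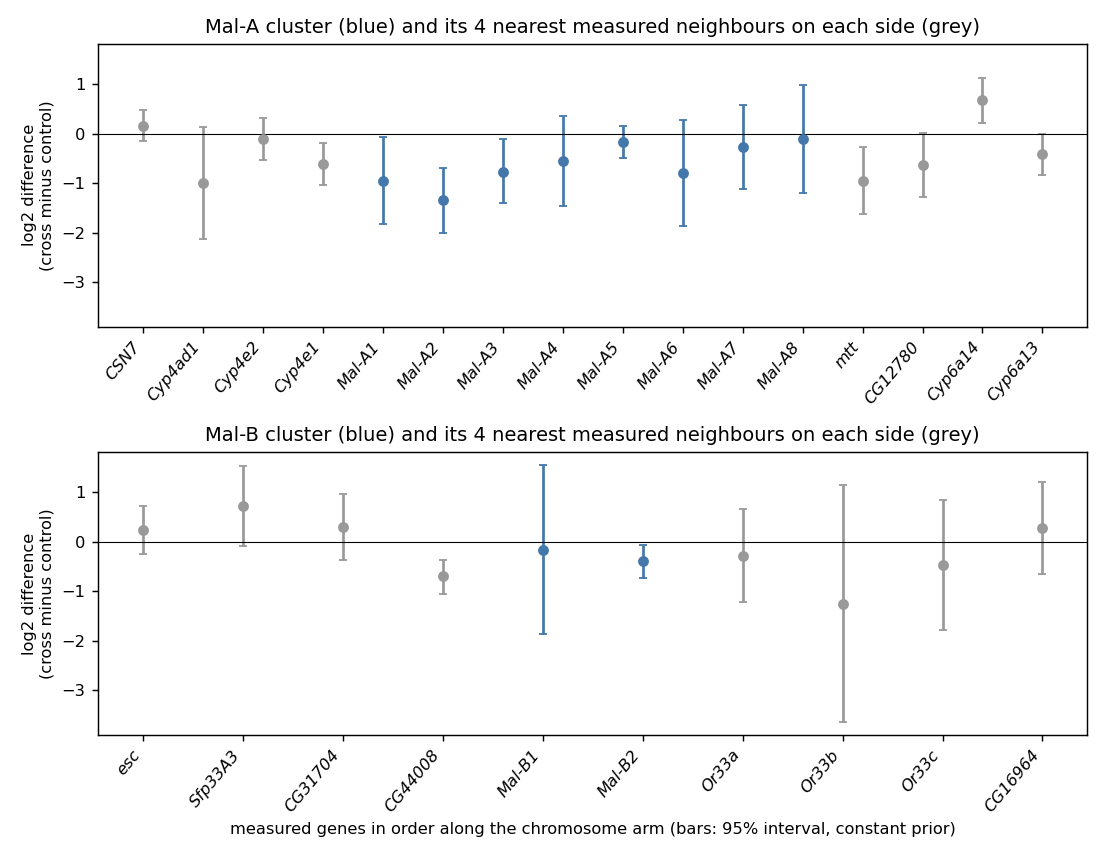
Log2 difference, cross minus control, with its 95% interval (vertical axis) for the members of each cluster (blue) and the 4 nearest measured genes on each side (grey), in order along the chromosome arm. Genes beside Mal-A range from -1.0 for Cyp4ad1 to 0.67 for Cyp6a14, and CG44008 beside Mal-B1 is at -0.70.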

How the data were processed

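The deposited values are probe set intensities on a linear scale, summarised and scaled by the authors; the software and its settings are not stated in the labels. Their mean without the top and bottom 2% was 2500.1 on each of the 6 arrays. Groups came from the sample titles. After 183 control probe sets were left out, 18769 were tested on log2(intensity + 1) with limma 3.58.1 in R 4.3.3 (lmFit, eBayes, constant prior). Tests were 2-sided, and p-values were adjusted by Benjamini-Hochberg across the whole table. Folds are on that scale. Genes were named from probe sets with 1 symbol in the platform annotation, updated by gene identifier through the Release 6 gene table (13544 matched, 103 did not), and the probe set with the highest mean log2 signal stood for a gene. Gene order came from that table.

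The 10 members and the lists of carbohydrate genes, neighbours and markers were chosen with earlier results of these data known. Named by rule were all members, all neighbours and up to 3 genes per list with the smallest p. Further list genes in the last section, and the shared amylase probe set, were picked after their values were seen. Alternatives were a pseudocount of 16, median centring, quantile scaling, a filter on dim probe sets, a trended and robust prior, a replicate block, each array left out, unequal variances, leaving out probe sets that read several transcripts, and the mean of a gene's probe sets. The fits were tested on simulated data. Each of the alternatives combined with the trended prior was added after seeing the data. With 6 arrays, precision is limited by their number.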

Additional observations from a re-analysis of the deposited data

How the results depend on the processing

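The log2 differences of Mal-A1 to Mal-A6 and Mal-B2 were negative in every alternative that measured them. The signs of Mal-A7, Mal-A8 and Mal-B1 turned with 1 array left out, with either prior: Mal-A7 to 0.0023 and Mal-A8 to 0.32 without cross replicate 3, Mal-A8 to 0.10 and Mal-B1 to 0.35 without control replicate 2, Mal-B1 to 0.03 without control replicate 1 and to 0.09 without cross replicate 1. With 1 array left out their lowest values were -0.52, -0.38 and -0.86. The median difference ranged from -0.88 to -0.40 for Mal-A, from -0.60 to -0.04 for Mal-B and from -0.50 to -0.07 for their contrast. Each lay within 1 SD between replicates of its value with all arrays. Leaving out 1 of 3 arrays in a group can hardly move a value further, so this does not show that the values were stable. The contrast of -0.50 came from leaving out probe sets that read several transcripts, which dropped Mal-B2 and left Mal-B1 alone. Maltase genes past the test numbered 0 with the constant prior and 1, Mal-A2, with the trended prior. The count over all probe sets was 0 with the constant prior, 147 with the trended prior, 112 without the dimmest 33.3% and 1 with unequal variances. With the trended prior it was 146 with quantile scaling, 150 with median centring, 147 with a pseudocount of 16, 179 without the dimmest 33.3%, 81 without probe sets that read several transcripts and 115 with the mean of a gene's probe sets, and Mal-A2 passed in each of these. With the trended prior and 1 array left out it was 7, 20 and 225 without control replicates 1, 2 and 3 and 11, 103 and 96 without those of the cross, and the maltase count from 0 to 1. Among the neighbours 1 gene, CG44008, passed with the trended prior. With that prior 0 passed under median centring or with a replicate block, and 0 to 1 with 1 array left out. The cause of these changes was not tested.

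The titles number the samples of both groups 1 to 3. Across probe sets the deviations of same-numbered samples correlated at -0.02, 0 and -0.10, and those of differently numbered samples at -0.07 to 0.09. Such correlations are weighted to the dimmest probe sets, whose median residual SD was 0.94 against 0.16 in the brightest. The correlations therefore cannot show whether same-numbered samples shared a culture or a day, which was not tested. With the replicate number as a block the count over all probe sets was 0 with the constant prior and 8 with the trended prior, and that of maltase genes was 0 in both.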

Other observations

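The order of the control arrays in Mal-B1, highest on replicate 2 and lowest on replicate 3, was not particular to it. Among the maltase genes it was also found in Mal-A3, Mal-A4, Mal-A6 and Mal-A8. Several genes of the marker and carbohydrate lists had it too, among them AGBE, Glys, CCHa2 and pros. Only a few orders of 3 arrays are possible, and the share of all probe sets with this order was not counted. These genes therefore do not show a shared pattern. The 3 genes described here, Lsp2, Fbp1 and Glyp, were chosen from the marker and carbohydrate lists after their values were seen. Lsp2, which encodes a larval serum protein made by the fat body, had signals of 3797, 6174 and 429 in the control and 634, 2449 and 1489 in the cross. Fbp1, which encodes the receptor for such proteins, had signals of 1200, 3180 and 34 in the control, and 77, 740 and 489 in the cross, of which 34 and 77 are within the background range. The glycogen phosphorylase gene Glyp had signals of 47896, 51850 and 32081 in the control and 31433, 39365 and 47978 in the cross. In these 3 genes, as in Mal-B1, control replicate 3 lay far below the other controls while the groups overlapped. In the fat body list ppl shared this order by a small margin, with control signals of 12436, 13603 and 12346, and 2 other genes did not. The lipoprotein gene apolpp had control signals of 59061, 54268 and 59945, lowest on replicate 2, and Apoltp had 10093, 9260 and 8963, highest on replicate 1.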
